A study of Mus musculus with 43 samples.

Results

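Mouse lung RNA was compared between 10 libraries of mice with 4 weeks of house dust mite exposure (HDM4wk) and 7 libraries from mice given saline (Saline). These are 17 of the 43 libraries of the series, and they were chosen by the group in each sample's title. House dust mite (HDM) extract is an airway allergen used to produce allergic airway disease in mice. Mice of both groups had the genotype Il33hu/hu, a humanised Il33 gene, on a mixed background of 75% C57BL/6NTac and 25% 129S6SvEvTac. Neither group is described as having received an antibody. Another group of 7 libraries, of the same genotype and background, had 15 weeks of HDM without antibody (HDM15wk) and is used to place the 4-week values. The labels give no age or sex, nor the route or dose of HDM. No time is stated for Saline mice, so HDM and time since the start cannot be told apart. The comparison asks which lung genes 4 weeks of the allergen changed.

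In allergic airway disease, epithelial alarmins such as IL-33 act on innate lymphoid cells and T helper cells, which release the type 2 cytokines IL-4, IL-5 and IL-13. IL-5 sustains eosinophils, while IL-4 and IL-13 act through STAT6 to turn macrophages towards alternative activation and airway epithelium towards mucus production. Chronic exposure is also known to remodel the airway wall and to bring in B and plasma cells.

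Values are CPM, counts per gene scaled to a common library size with the trimmed mean of M values, given per group as lowest, median and highest library. Log2 fold changes are HDM4wk over Saline, with a standard error (SE) worked back from the test. It is the size of the log2 fold change divided by the square root of the test's F statistic, and is thus approximate. A gene is said to rise or fall when its Benjamini-Hochberg adjusted p over 15598 tested genes in edgeR's quasi-likelihood test was under 0.05. Total counts ran from 4.795 to 11.96 M counts in HDM4wk and from 7.09 to 12.4 M in Saline libraries. Nothing says that libraries came from separate cultures or litters, so the p-values measure the spread between these samples. The markers of lung were present in both groups: Sftpc of type II alveolar cells had at least 9677 CPM in every HDM4wk library and at least 7725 CPM in every Saline library. In these bulk samples, fewer cells of a type and less RNA per cell cannot be told apart.

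The principal components of the 17 libraries separated the groups along the first component, which held 54.5% of the variance. HDM4wk libraries lay between 1.48 and 76.7 on it and Saline libraries between -64.1 and -43.4. HDM4wk replicate 3 stood apart on the second component, at 84.0, where the other 16 libraries lay between -27.2 and 16.2. Genes were put in 4 equal bins by transcript length, and in that library the bin of shortest transcripts had a median 0.56 above the HDM4wk median on the log2 scale, and the bin of longest transcripts had a median of -0.58 relative to it. In the other 16 libraries these medians lay between -0.18 and 0.14 for short and between -0.13 and 0.21 for long transcripts. HDM4wk replicate 10 held skeletal muscle and basal keratin genes that were near 0 in the others. Saline replicates 1, 3 and 5 had 332, 754 and 425 CPM of the goblet cell gene Clca1, where the other Saline libraries had at most 24.1 CPM. Sample numbers form 2 ranges, and no label says what a range stands for. Range 1 held 4 HDM4wk and 2 Saline libraries and range 2 held 6 and 5. Other settings of the fit are called alternatives (other tools, scalings and filters, single ranges, and single libraries left out). Their values are given for some of the calls that depend on them. Calls lost in range 1 alone are mostly given as a count.

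**Figure D1:**
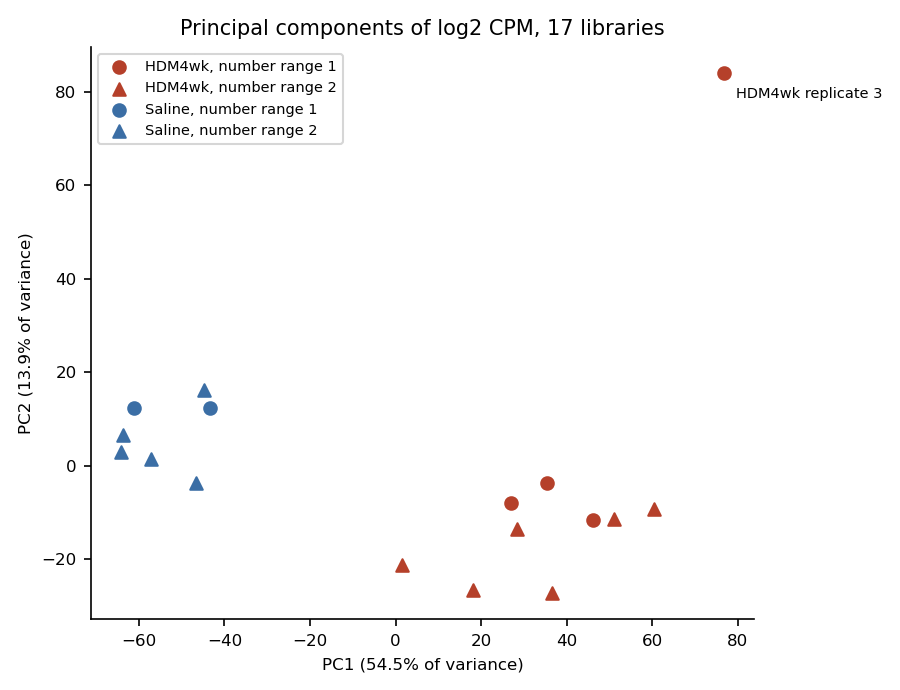
Principal components of log2 CPM over the 17 libraries, with the share of variance on each axis. HDM4wk (red) and Saline (blue) do not overlap on the first component, and HDM4wk replicate 3 lies alone at the top. Circles and triangles mark sample numbers of range 1 and range 2.

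Of 15598 tested genes, 8864 (56.8%) passed the test, 4571 (29.3%) higher and 4293 (27.5%) lower after HDM. At least 2-fold changes were seen for 1244 genes higher (7.98%) and 783 lower (5.02%). For 1559 genes (9.99%) every HDM4wk library was above every Saline library, and for 1562 (10%) every HDM4wk library was below. These shares are the background against which each gene list is read. The median log2 fold change of all tested genes was 0.01. The plot of gene lists shows where members of 58 lists lay against that background.

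**Figure D2:**
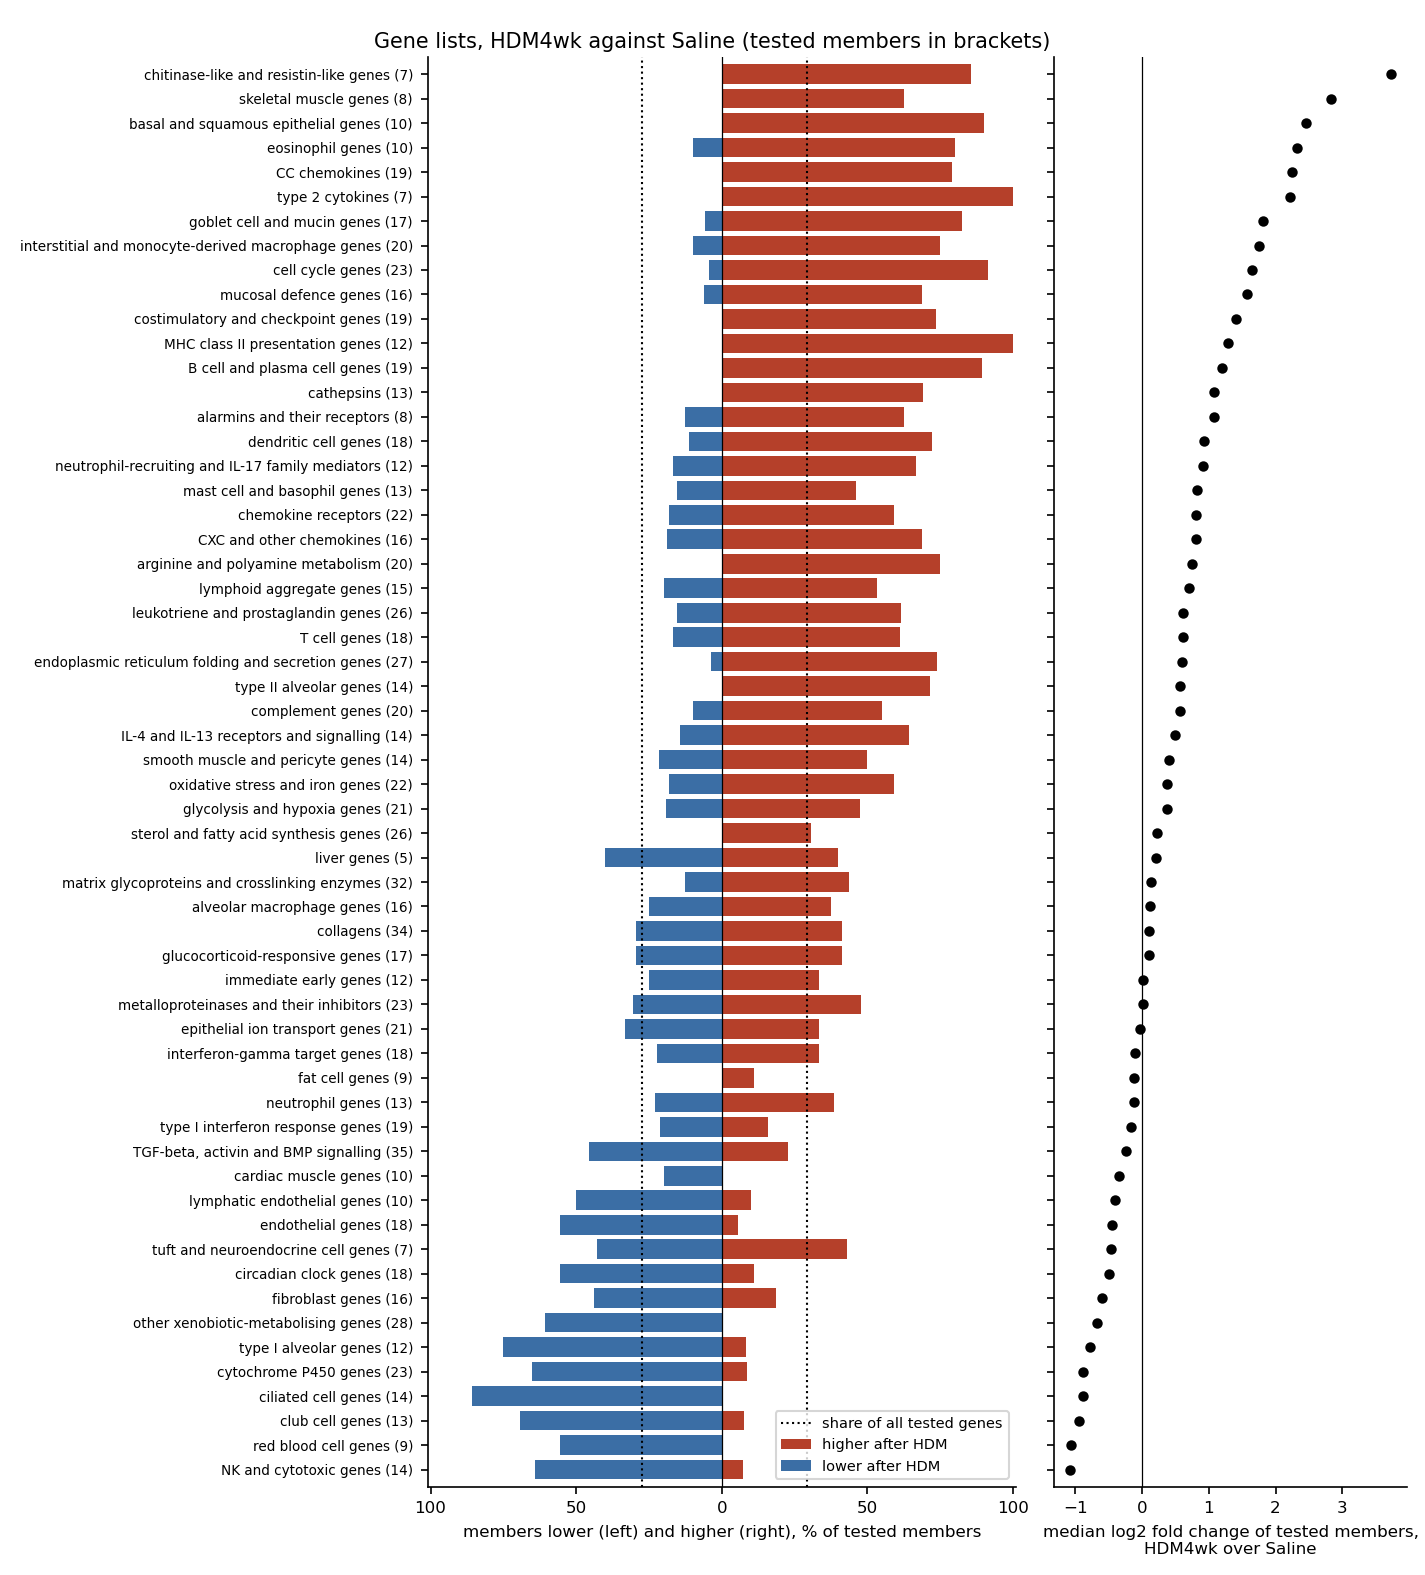
Left, the share of tested members of each list that were higher (red, right) or lower (blue, left) in HDM4wk than in Saline libraries. Dotted lines mark the shares of all tested genes, 29.3% higher and 27.5% lower. Right, the median log2 fold change of the tested members, HDM4wk over Saline. The lists run from chitinase-like and resistin-like genes (median 3.73) at the top to NK and cytotoxic genes (median -1.08) at the bottom.

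Promoter sequence was examined for the named genes of the CC chemokine, chitinase-like, resistin-like and arginine lists, since STAT6 binds palindromic sites of TTC and GAA with 4 bases of any kind (NNNN) between them. The RefSeq windows of GRCm38.p6 cover 250 bases before and 50 after each start. A window was given for 15 of these genes, and 3 of the 15 held the motif (searched on both strands, which are equivalent for a palindrome). Over all tested genes, 5.38% of first windows held it, as did 8.21% of genes at least 2-fold higher and 5.47% of genes at least 2-fold lower. A match is a description of letters, not a site. The 3 windows with a match are shown with the motif in capitals, 5′ to 3′ on the gene's strand. The motif begins 145, 72 and 154 bases before the start of Retnla, Retnlg and Ccl17. Retnla lies on chr16:48842359-48842658, Retnlg on chr16:48872358-48872657 and Ccl17 on chr8:94810203-94810502, all on the plus strand.
Retnla: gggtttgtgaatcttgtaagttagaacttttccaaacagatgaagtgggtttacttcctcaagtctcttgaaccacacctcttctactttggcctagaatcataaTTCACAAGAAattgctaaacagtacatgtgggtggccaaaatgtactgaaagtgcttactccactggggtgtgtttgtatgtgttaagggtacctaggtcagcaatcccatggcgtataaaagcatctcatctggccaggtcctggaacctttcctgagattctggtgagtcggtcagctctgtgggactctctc
Retnlg: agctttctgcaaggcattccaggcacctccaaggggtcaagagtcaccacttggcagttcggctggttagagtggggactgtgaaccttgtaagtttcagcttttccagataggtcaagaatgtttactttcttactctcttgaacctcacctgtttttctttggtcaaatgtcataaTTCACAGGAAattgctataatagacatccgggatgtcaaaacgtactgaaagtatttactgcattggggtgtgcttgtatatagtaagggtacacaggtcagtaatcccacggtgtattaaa
Ccl17: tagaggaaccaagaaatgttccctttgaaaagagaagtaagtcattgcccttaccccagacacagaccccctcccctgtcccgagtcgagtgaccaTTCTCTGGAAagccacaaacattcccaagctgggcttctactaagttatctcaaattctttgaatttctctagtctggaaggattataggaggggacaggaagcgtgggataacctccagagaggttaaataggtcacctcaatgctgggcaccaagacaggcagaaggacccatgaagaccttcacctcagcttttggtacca
The Retnla and Retnlg windows, of neighbouring paralogs, were identical at 148 of 227 bases when laid at their best shift. At that shift their motifs lie at the same place, so the matches of Retnla and Retnlg are not separate observations in the 3 of 15. The chitinase-like paralogs Chil3 (chr3:106167515-106167814, minus strand) and Chil4 (chr3:106219430-106219729, minus strand) had windows identical at 200 of 272 bases and no match. They are shown as windows of near copies. How reads of both genes were assigned cannot be read from promoter windows and was not tested.
Chil3: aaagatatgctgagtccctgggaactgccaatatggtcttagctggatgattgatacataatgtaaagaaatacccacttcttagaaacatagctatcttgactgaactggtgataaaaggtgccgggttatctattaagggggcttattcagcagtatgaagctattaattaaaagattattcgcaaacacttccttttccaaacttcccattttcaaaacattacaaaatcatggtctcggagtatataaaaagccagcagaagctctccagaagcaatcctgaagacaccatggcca
Chil4: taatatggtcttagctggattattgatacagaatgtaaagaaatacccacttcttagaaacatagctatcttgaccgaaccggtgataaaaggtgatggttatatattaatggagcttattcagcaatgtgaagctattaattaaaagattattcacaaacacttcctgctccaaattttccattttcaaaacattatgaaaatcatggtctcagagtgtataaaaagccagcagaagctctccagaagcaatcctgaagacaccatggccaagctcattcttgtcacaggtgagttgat
Of these lists Arg1, Ccl2, Ccl7, Ccl11, Ccl24, Nos2 and Slc7a2 are named without a sequence.

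Most alarmin and receptor genes rose. Among 8 tested alarmin and receptor genes, 5 rose and 1 fell, with a median log2 fold change of 1.08. Counts assigned to Il33 ranged from 209.5 to 522 CPM (median 364) in HDM4wk libraries, against 60.1 to 133 CPM (median 70.3) in Saline libraries. The groups did not overlap, with a log2 fold change of 2.15 ± 0.35 (SE), but the labels do not say which sequence of the humanised gene was counted. Il1rl1 encodes ST2, the IL-33 receptor. Its level ranged from 34.3 to 62.9 CPM (median 44.9) in HDM4wk libraries, against 5.86 to 17.7 CPM (median 11.6) in Saline libraries. The groups did not overlap, and the log2 fold change was 2.09 ± 0.25 (edgeR adjusted p = 1.04e-08). Il1rap, the shared accessory chain of the receptor, moved the other way, with 7.78 to 22.6 CPM after HDM and 22.8 to 29.6 CPM in Saline and a log2 fold change of -0.61 ± 0.16. Crlf2, the TSLP receptor chain, rose by 1.41 ± 0.21 on the log2 scale, with 28.4 to 55.5 CPM after HDM and 12.8 to 18.1 CPM in Saline. Its ligand gene Tslp did not pass the test (log2 fold change -0.51 ± 0.23, adjusted p = 0.0517), but passed it as lower in 11 of 29 alternatives (adjusted p between 0.0074 and 0.0462). These were 5 of the fits that left out a library, DESeq2, limma-voom, scaling by library size only, the 17 libraries alone, number range 2 alone and the GC and length correction. Il17rb, a chain of the IL-25 receptor, rose by 1.2 ± 0.29. Il25 had 1 count in all HDM4wk and 0 in all Saline libraries, too few to test.

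All 7 tested genes of the type 2 cytokine list rose, with a median log2 fold change of 2.22. The list held 10 genes, and Il3, Il9 and Il31 had too few counts to test. Beside Il4, Il5 and Il13 the 7 include Csf2, Il10, Il21 and Areg. Genes near 0 in Saline libraries, such as Il13, could enter the test only through groups where they were higher. The count of 7 is thus partly set by the filter on counts. Il13, the cytokine most tied to mucus and airway reactivity, ranged from 2.39 to 9.94 CPM (median 5.28) in HDM4wk libraries, against 0 to 0.3998 CPM (median 0) in Saline libraries. Every HDM4wk library was above every Saline library, and 4 of the 7 Saline libraries had no Il13 count. The log2 fold change was 5.47 ± 0.63 (adjusted p = 4.6e-09). Il5, the eosinophil growth factor, ranged from 0.855 to 2.999 CPM (median 2.06) in HDM4wk libraries, against 0 to 0.374 CPM (median 0.154) in Saline libraries, again without overlap (log2 fold change 3.52 ± 0.52). Il4, which drives class switching to IgE, had 0.8996 to 2.75 CPM after HDM and 0.0869 to 0.666 CPM in Saline. The highest Saline value of Il4 was in Saline replicate 1, and the log2 fold change was 2.87 ± 0.42. Areg, an epidermal growth factor family ligand made by type 2 lymphocytes and epithelium, rose by 1.38 ± 0.28. Il10, a regulatory cytokine, rose by 2.22 ± 0.57 with overlapping groups. Il9 had no counts in either group.

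On the receiving side of IL-4 and IL-13, 9 of 14 genes rose and 2 fell. Il4ra, the shared receptor chain, had 129 to 177 CPM after HDM and 115 to 138 CPM in Saline and did not pass the test (log2 fold change 0.30 ± 0.13, adjusted p = 0.0556), but passed it as higher in 7 of 29 alternatives (adjusted p between 0.00103 and 0.0498), among them without HDM4wk replicate 3 or 4. Il13ra2, a decoy receptor for IL-13, ranged from 1.88 to 8.78 CPM (median 3.83) in HDM4wk libraries, against 0 to 0.267 CPM (median 0) in Saline libraries. It was close to absent in Saline, where 4 of the 7 libraries had no count, and its log2 fold change was 5.42 ± 0.66. Stat6 itself fell by 0.22 on the log2 scale with overlapping groups, and its lowest library was HDM4wk replicate 3. Among feedback inhibitors of cytokine signalling, Socs1 rose by 1.76 ± 0.22 and Cish by 1.02 ± 0.13, each without overlap.

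**Figure D3:**
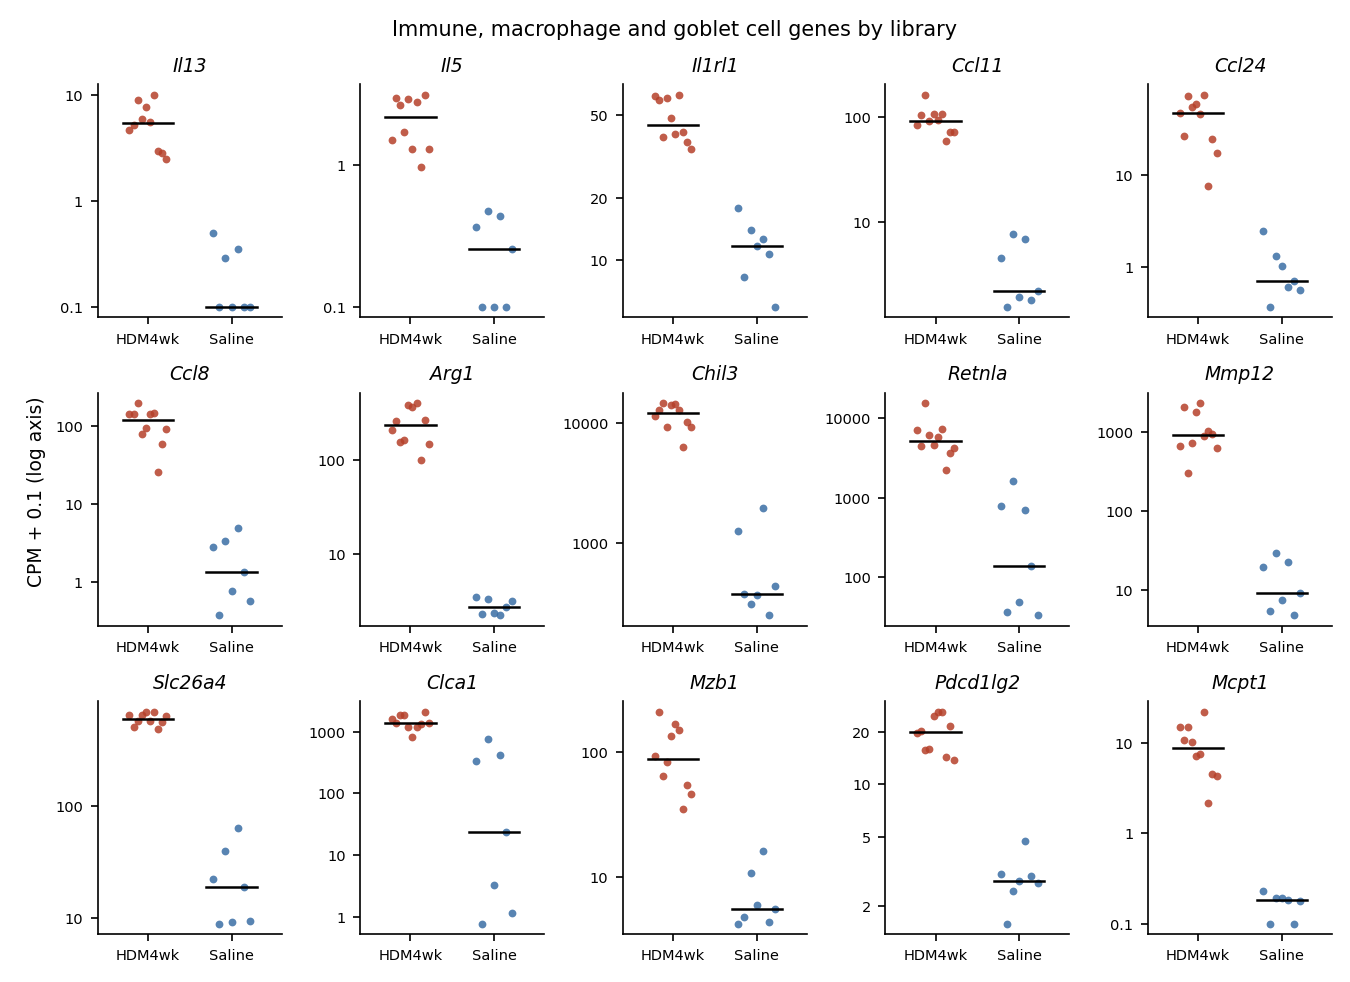
CPM plus an offset of 0.1 on a log axis for 15 genes that rose, with 1 point per library and a line at the group median, HDM4wk left and Saline right. In each panel every HDM4wk point lies above every Saline point. Retnla and Clca1 are the panels in which 3 Saline libraries lie far above the other 4.

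CC chemokines rose widely. Of 19 tested genes 15 rose and none fell, against 29.3% of all tested genes higher, with a median log2 fold change of 2.24. The eosinophil-attracting eotaxins were among them. Ccl11 (eotaxin-1) ranged from 59.2 to 164 CPM (median 91.9) in HDM4wk libraries, against 1.48 to 7.67 CPM (median 2.16) in Saline libraries. No HDM4wk library came within the Saline range, and the log2 fold change was 4.66 ± 0.43 (adjusted p = 4.61e-11). Ccl24 (eotaxin-2) ranged from 7.52 to 75.96 CPM (median 47.2) in HDM4wk libraries, against 0.269 to 2.399 CPM (median 0.608) in Saline libraries, with its lowest HDM4wk value in replicate 8 and a log2 fold change of 5.56 ± 0.60. Their receptor Ccr3, carried by eosinophils, had 7.97 to 32.2 CPM after HDM and 0.808 to 6.93 CPM in Saline and rose by 2.96 ± 0.40. Ccl8, a ligand of CCR8 in the mouse, ranged from 25.3 to 195 CPM (median 117) in HDM4wk libraries, against 0.269 to 4.798 CPM (median 1.22) in Saline libraries. It rose by 5.83 ± 0.42 on the log2 scale (adjusted p = 8.76e-14), and Ccr8, found on type 2 helper and regulatory T cells, rose by 2.98 ± 0.31. The monocyte attractants Ccl2 and Ccl7 rose by 3.22 ± 0.38 and 3.93 ± 0.46, each without overlap. The CCR4 ligands Ccl17 and Ccl22 rose by 1.79 ± 0.34 and 1.11 ± 0.21, with overlapping groups, and Ccr4 rose by 1.44 ± 0.20. Ccl21a, a lymphoid tissue chemokine, had 73.3 to 173 CPM after HDM and 61.96 to 96.5 CPM in Saline and did not pass the test (log2 fold change 0.26 ± 0.14). It passed as higher without Saline replicate 3 or 5 (adjusted p = 0.0477 and 0.0428), and after a correction for GC content and length it was instead called lower, at -0.235.

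Among 16 CXC and other chemokines 11 rose and 3 fell. The neutrophil attractants Cxcl1 and Cxcl5 were higher in every HDM4wk library: Cxcl5 ranged from 19.97 to 88.3 CPM (median 35.6) in HDM4wk libraries, against 0.404 to 8.04 CPM (median 1.29) in Saline libraries. Its log2 fold change was 4.29 ± 0.66, and that of Cxcl1 was 2.71 ± 0.44. Cxcl9, an interferon-induced ligand of CXCR3, had 2.299 to 20.2 CPM after HDM and 0.404 to 1.22 CPM in Saline and rose by 2.91 ± 0.61. Cxcl15 (lungkine), made by lung epithelium, rose by 0.86 ± 0.12. Ppbp, a platelet chemokine, fell to 2.19 to 14.4 CPM after HDM, against 15.7 to 33.1 CPM in Saline. The scavenging receptor Ackr3 also fell, by 0.65 on the log2 scale.

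Chitinase-like and resistin-like genes, several of them known from alternatively activated macrophages, had the largest median of the 58 lists. Of 7 tested 6 rose, each without overlap between groups, and the list median was 3.73. Chil3 (Ym1) ranged from 6395 to 14750 CPM (median 12150) in HDM4wk libraries, against 251 to 1977 CPM (median 377) in Saline libraries. Saline replicates 1 and 5 had 1272 and 1977 CPM, and the log2 fold change was 4.02 ± 0.50 (adjusted p = 2.92e-08). Its near copy Chil4 ranged from 279 to 945 CPM (median 429) in HDM4wk libraries, against 0.0924 to 118 CPM (median 0.617) in Saline libraries. The highest Saline value was in replicate 3, and without that library the log2 fold change of Chil4 was 7.98 in place of 5.05 ± 0.97. Chia1, the acidic chitinase that digests chitin, ranged from 318 to 2385 CPM (median 1085) in HDM4wk libraries, against 57.4 to 154 CPM (median 78.3) in Saline libraries and rose by 3.73 ± 0.42. Chil1, another chitinase-like lectin, rose by 2.71 ± 0.32. Retnla (RELMα) ranged from 2235 to 15360 CPM (median 5153) in HDM4wk libraries, against 32.99 to 1633 CPM (median 138) in Saline libraries. Its 3 highest Saline values were in replicates 1, 3 and 5, and its log2 fold change of 3.73 ± 0.71 became 4.40 without Saline replicate 3. Retnlg, a myeloid paralog, had 55.1 to 112 CPM after HDM and 9.97 to 29.1 CPM in Saline and rose by 2.10 ± 0.24. The epithelial paralog Retnlb had 65 counts in all HDM4wk and 8 in all Saline libraries and was not tested.

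Of 20 tested genes of arginine and polyamine metabolism, 15 rose and none fell, with a median log2 fold change of 0.75. Arg1, an enzyme that splits arginine into ornithine and urea (Entrez 11846, chromosome 10, 24915207 to 24927470, GRCm38.p6), ranged from 100.1 to 408 CPM (median 238) in HDM4wk libraries, against 2.104 to 3.33 CPM (median 2.61) in Saline libraries. The Saline libraries lay close together, and the log2 fold change was 6.57 ± 0.76 (adjusted p = 1.04e-08). Slc7a2, a transporter that brings in arginine, ranged from 169 to 355 CPM (median 219) in HDM4wk libraries, against 71.5 to 102 CPM (median 73.7) in Saline libraries and rose by 1.54 ± 0.26. Nos2, which competes for the same arginine, rose by 1.42 ± 0.28, with overlapping groups. Mmp12, the macrophage elastase, ranged from 305 to 2302 CPM (median 908) in HDM4wk libraries, against 4.69 to 29.3 CPM (median 9.17) in Saline libraries. Its log2 fold change was 6.38 ± 0.72.

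Of 20 interstitial and monocyte-derived macrophage genes 15 rose and 2 fell (median 1.75), while of 16 alveolar macrophage genes 6 rose and 4 fell (median 0.12). In the interstitial and monocyte-derived list Cx3cr1 and Lyve1 fell, and Ccr2, Cd163 and Plac8 did not pass the test. Ms4a7, a marker of interstitial macrophages, ranged from 15.99 to 34.02 CPM (median 24.9) in HDM4wk libraries, against 1.22 to 4.55 CPM (median 2.399) in Saline libraries and had the smallest p of all tested genes (log2 fold change 3.22 ± 0.19, adjusted p = 6.22e-16). C1qb, a complement chain made by macrophages, rose by 2.57 ± 0.17. Among genes of lipid-handling macrophages, Trem2 rose by 4.30 ± 0.44, Gpnmb by 4.25 ± 0.51 and Spp1 (osteopontin) by 4.21 ± 0.56. Spp1 ranged from 463 to 2673 CPM (median 1355) in HDM4wk libraries, against 38.4 to 123 CPM (median 103) in Saline libraries. Of the alveolar macrophage genes, Atp6v0d2, a proton pump subunit, rose by 2.80 ± 0.33, and Ear1, an eosinophil-associated ribonuclease, fell by 2.84. Marco, a scavenger receptor of these cells, ran from 0.344 to 27.8 CPM in HDM4wk libraries, against 9.29 to 25.4 CPM in Saline libraries. Its spread within the HDM4wk group spanned the Saline range, and it did not pass the test (adjusted p = 0.393), but was called lower by limma-voom (log2 fold change -2.20, adjusted p = 0.0449). Of 13 tested cathepsins, the lysosomal proteases, 9 rose and none fell. Ctsk ranged from 168 to 580.1 CPM (median 278) in HDM4wk libraries, against 10.3 to 38.8 CPM (median 16.9) in Saline libraries and rose by 3.88 ± 0.48, and Ctss, which trims the class II invariant chain, rose by 2.57 ± 0.18.

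All 12 tested MHC class II presentation genes rose, 9 of them without overlap, with a median log2 fold change of 1.28. H2-Aa, a class II chain, ranged from 869.6 to 1542 CPM (median 1046) in HDM4wk libraries, against 384 to 646 CPM (median 444) in Saline libraries. The highest Saline library was replicate 1, still below all HDM4wk libraries, and the log2 fold change was 1.25 ± 0.12. Cd74, the invariant chain, rose by 1.39 ± 0.17. Ciita, the class II transactivator, rose by 0.64 ± 0.15 with overlapping groups, and its lowest library was HDM4wk replicate 3 at 29.7 CPM. Among 19 costimulatory and checkpoint genes 14 rose and none fell. Pdcd1lg2 (PD-L2) ranged from 13.7 to 25.96 CPM (median 19.8) in HDM4wk libraries, against 1.48 to 4.63 CPM (median 2.68) in Saline libraries and rose by 2.83 ± 0.21. Cd274 (PD-L1), the other ligand of PD-1, had 29.7 to 69.2 CPM after HDM and 28.1 to 53.2 CPM in Saline and did not pass the test (log2 fold change 0.28 ± 0.19), except when the 17 libraries were fitted alone (adjusted p = 0.0258). The T cell receptors of such signals rose, Pdcd1 by 3.63 ± 0.33, Ctla4 by 1.81 ± 0.26 and Icos by 1.45 ± 0.15. The dendritic cell list had 13 of 18 genes higher and 2 lower.

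Lymphocyte genes moved in different directions. Of 18 T cell genes 11 rose and 3 fell. Cd4 ranged from 19.4 to 29.4 CPM (median 25) in HDM4wk libraries, against 6.06 to 13.6 CPM (median 10.6) in Saline libraries and rose by 1.19 ± 0.17 without overlap. Foxp3, the regulatory T cell factor, rose by 1.33 ± 0.20. Cd8b1, of cytotoxic T cells, fell by 0.82 with overlapping groups, and Cd8a fell by 0.67 (adjusted p = 0.0341). In number range 1 alone the log2 fold change of Cd8b1 was -0.005 and its call was lost (adjusted p = 0.995). The call for Cd8a was lost without HDM4wk replicate 4 or 10 or Saline replicate 3, 4, 6 or 7 (highest adjusted p 0.0834), and its log2 fold change was 0.29 in number range 1 alone. NK and cytotoxic genes had the lowest list median, -1.08, with 9 of 14 lower and 1 higher. Ncr1, an activating NK receptor, fell to 1.77 to 5.73 CPM (median 3.12) in HDM4wk libraries, against 7.57 to 13.4 CPM (median 8.67) in Saline libraries. All HDM4wk libraries were below all Saline libraries, and the log2 fold change was -1.56 ± 0.26. Klrb1c fell by 1.39 and the granzyme gene Gzma by 0.95. Both calls were lost in number range 1 alone, Klrb1c at -1.18 (adjusted p = 0.0785) and Gzma at -0.28 (adjusted p = 0.693). Ifng, the cytokine of these cells, had 0.0808 to 0.972 CPM after HDM and 0.135 to 0.539 CPM in Saline and did not pass the test (adjusted p = 0.783).

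Of 19 B cell and plasma cell genes 17 rose and none fell. Mzb1, a chaperone of plasma cells, ranged from 34.8 to 211 CPM (median 88.3) in HDM4wk libraries, against 4.13 to 16.1 CPM (median 5.47) in Saline libraries. All HDM4wk libraries were above all Saline libraries, and the log2 fold change was 3.79 ± 0.37 (adjusted p = 1.5e-10). Jchain, which joins IgA and IgM, ranged from 973 to 4834 CPM (median 1964) in HDM4wk libraries, against 24.8 to 562 CPM (median 60.1) in Saline libraries. Saline replicate 5 held the highest Saline value, and the log2 fold change was 4.10 ± 0.53. Ms4a1 (CD20), a B cell surface gene, had a log2 fold change of 0.61 ± 0.29 that did not pass the test. Ms4a1 did pass in 5 of 29 alternatives (adjusted p between 0.0104 and 0.047), among them without HDM4wk replicate 3 or 10. The summed level of the list ran from 1850 to 6570 CPM in HDM4wk libraries and from 467 to 1190 CPM in Saline libraries.

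Eosinophil genes rose in 8 of 10 tested cases, and 1 fell. Adgre4 was the gene that fell, and Siglecf, a surface gene also in the alveolar macrophage list, did not pass the test. Genes near 0 in Saline libraries, such as Prg2, could enter the test only through groups where they were higher. The count of 8 is thus partly set by the filter on counts. Prg2, the major basic protein of the granule, ranged from 6.803 to 21.7 CPM (median 11.98) in HDM4wk libraries, against 0.269 to 0.647 CPM (median 0.462) in Saline libraries. Its log2 fold change was 4.76 ± 0.34 (adjusted p = 7.17e-14). Alox15, a lipoxygenase of eosinophils, macrophages and epithelium, ranged from 39.9 to 179 CPM (median 80.03) in HDM4wk libraries, against 3.18 to 7.86 CPM (median 5.01) in Saline libraries and rose by 4.05 ± 0.53. Epx, eosinophil peroxidase, had 31 counts over 9 HDM4wk libraries and 0 in Saline libraries, too few to test. Mcpt1 and Mcpt2, mucosal mast cell proteases, are near copies of each other. Mcpt1 ranged from 2.05 to 21.98 CPM (median 8.66) in HDM4wk libraries, against 0 to 0.133 CPM (median 0.0842) in Saline libraries. Mcpt2 ranged from 2.202 to 16.8 CPM (median 8.87) in HDM4wk libraries, against 0 to 0.135 CPM (median 0) in Saline libraries. Both were near absent in Saline, and Mcpt2 had 3 counts in all Saline libraries, which gives a ratio of 206 with an exact 95% interval of 70.2 to 1e+03 that covers counting error only. Cpa3, the mast cell carboxypeptidase, rose by 1.68 ± 0.43. Of 13 tested mast cell and basophil genes 6 rose, 2 fell and 5 did not pass the test. Kit was among those that fell, and Mcpt4, Cma1, Ms4a2 and Fcer1a among those that did not pass. The basophil protease gene Mcpt8 did not pass the test (adjusted p = 0.498), and Gata2, a transcription factor of mast cells and of endothelium, fell by 0.94.

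Neutrophil genes showed no common direction, with 5 of 13 higher and 3 lower and a median of -0.12. S100a8, a calprotectin chain, had 16.2 to 79.1 CPM after HDM and 22.5 to 45.5 CPM in Saline and did not pass the test, although in 3 of 29 alternatives it was called lower, namely without HDM4wk replicate 3 (adjusted p = 0.0315), in number range 2 alone and after the GC and length correction. The collagenase gene Mmp8 fell by 0.82. Of 12 tested genes in a list of neutrophil-recruiting and IL-17 family mediators 8 were higher and 2 lower. That list is mixed, and the 8 were Il17a, Il1a, Il6, Tnf, Lcn2, Saa3, Nfkbiz and Il1rn. Saa3, an acute phase protein made in the lung, ranged from 15.1 to 170.5 CPM (median 55.4) in HDM4wk libraries, against 0.521 to 4.49 CPM (median 1.002) in Saline libraries. Lcn2 (lipocalin-2), an iron-binding defence protein, ranged from 424 to 1232 CPM (median 859) in HDM4wk libraries, against 52.2 to 152 CPM (median 77.4) in Saline libraries. Their log2 fold changes were 5.23 ± 0.89 and 3.20 ± 0.40. Il6 rose by 3.13 ± 0.47. Il1b did not pass the test (log2 fold change 0.19 ± 0.24), and Il18 fell by 1.35 without overlap. Il17a had 32 counts over 6 of the HDM4wk libraries and 0 in Saline libraries, at least 7.49-fold higher against a floor of 3 counts over the Saline group.

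Airway epithelium showed more goblet and less club and ciliated cell RNA. Of 17 goblet cell and mucin genes 14 rose and 1 fell, with a median log2 fold change of 1.81. Slc26a4 (pendrin), an anion exchanger of mucous cells (Entrez 23985, chromosome 12, 31519814 to 31560055, GRCm38.p6), ranged from 493 to 701 CPM (median 608) in HDM4wk libraries, against 8.75 to 63.9 CPM (median 18.9) in Saline libraries. The HDM4wk libraries lay close together, and the log2 fold change was 4.67 ± 0.44 (adjusted p = 7.81e-11). Clca1, a secreted protease of mucus, ranged from 813 to 2123 CPM (median 1401) in HDM4wk libraries, against 0.673 to 754 CPM (median 24.1) in Saline libraries. The groups did not overlap, and its log2 fold change of 2.77 ± 0.81 was 3.50 without Saline replicate 3. The Clca1 call was lost within each range of sample numbers, at 3.35 in range 1 (adjusted p = 0.208) and 2.49 in range 2 (adjusted p = 0.107). Muc5ac, the gel-forming mucin of goblet cells, had 15.1 to 57.6 CPM after HDM and 1.696 to 30.4 CPM in Saline and rose by 1.87 ± 0.46, with overlap through Saline replicates 3 and 5. Its call was lost in number range 2 alone (1.43, adjusted p = 0.0902). Muc5b, the resident airway mucin, had 78.97 to 259 CPM after HDM and 52.03 to 275 CPM in Saline and did not pass the test. Agr2, needed to fold mucin, rose by 2.72 ± 0.41, Fcgbp, a mucus protein, by 3.15 ± 0.47 and the lectin Itln1 by 6.42 ± 0.74.

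Of 13 club cell genes 9 fell and 1 rose (median -0.95). Cyp2f2, a P450 enzyme of club cells, fell to 269.6 to 766 CPM (median 447) in HDM4wk libraries, against 1575 to 2706 CPM (median 1959) in Saline libraries. The groups did not overlap, and the log2 fold change was -2.15 ± 0.26. Scgb1a1, the main secretoglobin, had 5190 to 15940 CPM after HDM and 13370 to 24010 CPM in Saline. It fell by 0.95, and HDM4wk replicate 3 was the one HDM4wk library within the Saline range. Scgb3a2 fell by 2.03, while its relative Scgb3a1, found in mucous airway cells, rose by 1.6 ± 0.36. Of 14 ciliated cell genes 12 fell and none rose. Dnaic1 (Dnai1), a dynein arm chain, had 4.804 to 8.36 CPM after HDM and 9.195 to 18.9 CPM in Saline and fell by 0.91, and Foxj1, the regulator of ciliogenesis, fell by 0.58 with overlap. That call for Foxj1 was lost without Saline replicate 3 (adjusted p = 0.0958).

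**Figure D4:**
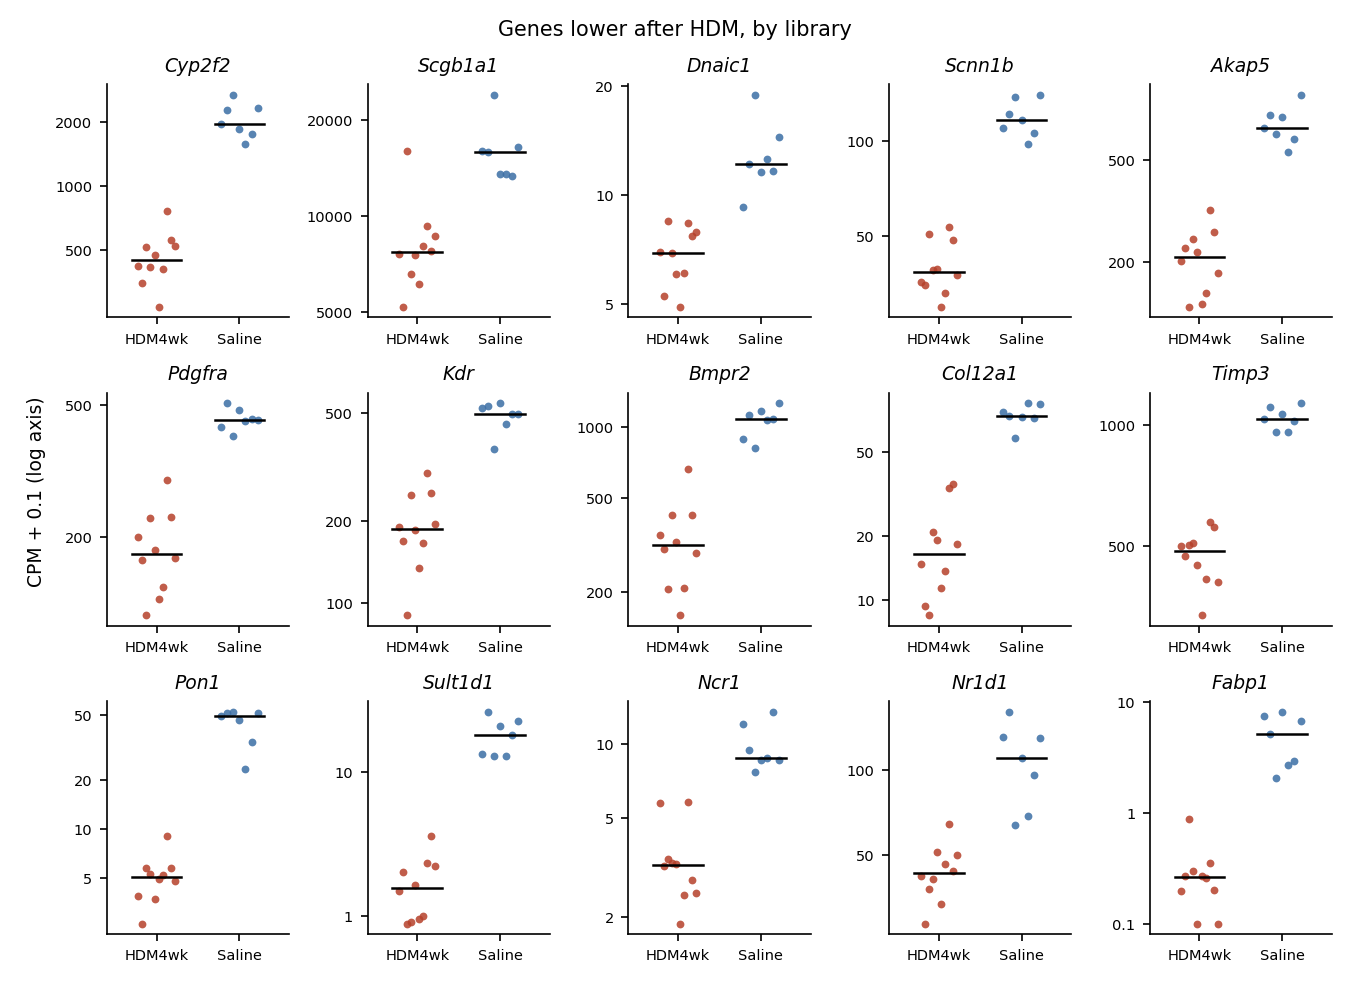
CPM plus an offset of 0.1 on a log axis for 15 genes that fell, with 1 point per library and a line at the group median, HDM4wk left and Saline right. HDM4wk points lie below all Saline points except in the panels of Scgb1a1 and Nr1d1, where the groups overlap.

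Defence genes of the epithelium mostly rose, while its transport genes stayed near the background shares. Of 16 mucosal defence genes 11 rose and 1 fell. Pigr, which carries IgA across epithelium, ranged from 493 to 947 CPM (median 720.4) in HDM4wk libraries, against 63.5 to 242 CPM (median 80.2) in Saline libraries and rose by 2.60 ± 0.38. Slpi, an antiprotease, ranged from 65.2 to 947 CPM (median 384) in HDM4wk libraries, against 12.1 to 34.2 CPM (median 22.9) in Saline libraries and rose by 4.29 ± 0.44. Sftpd, a lung collectin, rose by 1.57 ± 0.20, and the lectin Reg3g by 2.96 ± 0.46. Bpifa1 (SPLUNC1), an upper airway secretion, fell by 2.37 with overlapping groups, and the call was lost without Saline replicate 2 (adjusted p = 0.0624). Of 21 ion transport genes 7 rose and 7 fell, close to the shares of all tested genes (29.3% higher and 27.5% lower). Scnn1b, a chain of the epithelial sodium channel, fell to 29.8 to 53.4 CPM (median 38.4) in HDM4wk libraries, against 98.1 to 141 CPM (median 117) in Saline libraries (log2 fold change -1.56 ± 0.12). Duox1, an oxidase that makes hydrogen peroxide at the surface, had 0.972 to 13.7 CPM after HDM and 0 to 0.374 CPM in Saline and rose by 5.46 ± 0.97. Cftr, the chloride channel, did not pass the test (log2 fold change 0.34 ± 0.18). It was called higher in 3 of 29 alternatives, namely without HDM4wk replicate 3 (0.43, adjusted p = 0.0314), in number range 2 alone (0.47, adjusted p = 0.0182) and after a correction for GC content and length (0.74, adjusted p = 4.65e-05).

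Basal and squamous epithelial genes rose in 9 of 10 tested cases, and Krt14 did not pass the test. The 9 include Il33, which is counted in the alarmin and type II alveolar lists too. Krt6a, Krt13, Krt17, Serpinb3a and Dsg3 of the list had too few counts to test. Genes near 0 in Saline libraries, such as Krt5, could enter the test only through groups where they were higher. The count of 9 is thus partly set by the filter on counts. Trp63, the basal cell factor, had 1.62 to 8.72 CPM after HDM and 0.673 to 1.39 CPM in Saline and rose by 1.78 ± 0.48, and Ngfr, a basal cell receptor, rose by 2.09 ± 0.25. Krt5, the basal keratin, had 85.5 CPM in HDM4wk replicate 10 and at most 2.67 CPM in any other HDM4wk library, against at most 0.174 CPM in Saline. Without replicate 10 the adjusted p of Krt5 was 0.116. The same library held 405 CPM of the skeletal muscle gene Myh8, where no other HDM4wk library passed 0.194 CPM. The part of such tissue in the rise of basal genes was not tested. Among 7 tested tuft and neuroendocrine genes 3 rose and 3 fell. Dclk1 ranged from 28.4 to 44.9 CPM (median 39.1) in HDM4wk libraries, against 10.9 to 15.1 CPM (median 14.3) in Saline libraries and rose by 1.48 ± 0.15, and Calca, the neuropeptide CGRP gene, rose by 2.05 ± 0.40. The tuft cell genes Pou2f3 and Trpm5 had too few counts to test.

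Of 12 type I alveolar genes 9 fell and 1 rose (median -0.78), whereas of 14 type II alveolar genes 10 rose and none fell (median 0.57). Several of these 10, such as Il33, Lcn2 and Chil1, are counted in other lists too. Sftpb, Abca3, Etv5 and Lpcat1 of the type II list did not pass the test. Akap5 ranged from 134 to 320.0 CPM (median 210.0) in HDM4wk libraries, against 536 to 899 CPM (median 666) in Saline libraries. The groups did not overlap, and the log2 fold change was -1.74 ± 0.22. Rtkn2 fell by 1.40. Ager (RAGE), a defining type I protein, had 900.1 to 2246 CPM after HDM and 1188 to 1462 CPM in Saline and did not pass the test (adjusted p = 0.0975), its highest value being that of HDM4wk replicate 3. Without that library Ager was called lower (log2 fold change -0.48, adjusted p = 0.0104), as it was in 4 of the other alternatives. Pdpn (podoplanin) rose by 0.35 ± 0.12, a call lost with the correction for GC content and length. Sftpc, surfactant protein C, rose by 0.64 ± 0.16, with 9677 to 28850 CPM after HDM and 7725 to 10980 CPM in Saline, a call also lost with that correction. Abca3, the surfactant lipid transporter, did not pass the test (log2 fold change -0.21 ± 0.14).

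Fibroblast and endothelial genes were lower more often than higher. Of 16 fibroblast genes 7 fell and 3 rose. Pdgfra, a receptor of alveolar fibroblasts, ranged from 116 to 297 CPM (median 177) in HDM4wk libraries, against 401 to 505 CPM (median 449) in Saline libraries. The groups did not overlap, and the log2 fold change was -1.27 ± 0.16. Inmt, a methyltransferase of these fibroblasts, fell by 1.5. Postn (periostin), a matrix protein known as an IL-13 target in airway disease, had 147 to 359.9 CPM after HDM and 201 to 324 CPM in Saline and a log2 fold change of 0.01 ± 0.16, which did not pass the test. With the correction for GC content and length it was called higher, at 0.39 (adjusted p = 0.00142). Acta2, smooth muscle actin, ranged from 314 to 662 CPM (median 534) in HDM4wk libraries, against 206 to 299.8 CPM (median 249) in Saline libraries and rose by 1.06 ± 0.20, and Myh11, smooth muscle myosin, rose by 0.80 ± 0.22 with overlap. Of 14 smooth muscle and pericyte genes 7 rose and 3 fell. Among 18 endothelial genes 10 fell and 1 rose. Kdr (VEGF receptor 2) ranged from 90.2 to 299 CPM (median 188) in HDM4wk libraries, against 369 to 542 CPM (median 495) in Saline libraries and fell by 1.32, and Tek, the angiopoietin receptor, fell by 1.33. Pecam1, the general endothelial marker, fell by 0.53 with overlapping groups. Vegfa, the ligand of Kdr, fell to 291 to 516 CPM after HDM, against 821 to 983 CPM in Saline (log2 fold change -1.13 ± 0.15).

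Matrix genes moved both ways, as did all tested genes (29.3% higher and 27.5% lower). Of 34 collagens 14 rose and 10 fell (median 0.11). Col6a5, a collagen VI chain (Entrez 665033, chromosome 9, 105856070 to 105962463, GRCm38.p6), ranged from 62.8 to 201 CPM (median 111) in HDM4wk libraries, against 0.739 to 3.83 CPM (median 1.82) in Saline libraries. Its log2 fold change was 5.83 ± 0.47 (adjusted p = 1.32e-12). Of the fibrillar collagens, Col3a1 rose by 1.33 ± 0.19 and Col1a1 by 0.77 ± 0.26. Col12a1, a fibril-associated collagen, fell to 8.36 to 35.5 CPM (median 16.5) in HDM4wk libraries, against 58.2 to 85.4 CPM (median 74.6) in Saline libraries. The basement membrane chain Col4a3 fell by 1.21. Of 32 matrix glycoprotein and crosslinking genes 14 rose and 4 fell, with Tnc (tenascin C) at 2.01 ± 0.25 and Eln (elastin) at 1.26 ± 0.29 on the log2 scale. Timp1 and Timp3, inhibitors of metalloproteinases, went in opposite directions, Timp1 by 3.04 ± 0.53 and Timp3 by -1.16 ± 0.13. Among 35 genes of TGF-beta, activin and BMP signalling 16 fell and 8 rose. Tgfb1 rose by 0.87 ± 0.21 and Inhba, an activin chain, by 3.39 ± 0.64, while Bmpr2, a BMP receptor, ranged from 159 to 662 CPM (median 315) in HDM4wk libraries, against 814 to 1265 CPM (median 1088) in Saline libraries and fell by 1.65.

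More genes of drug and xenobiotic metabolism fell than rose. Of 23 cytochrome P450 genes 15 fell and 2 rose (median -0.88), and of 28 other xenobiotic-metabolising genes 17 fell and none rose (median -0.67). Sult1d1, a sulfotransferase, fell to 0.777 to 3.498 CPM (median 1.46) in HDM4wk libraries, against 12.7 to 25.99 CPM (median 17.9) in Saline libraries. Its groups did not overlap, and its log2 fold change was -3.44 ± 0.36. The paraoxonase Pon1 fell by 3.15 and Cyp4b1 by 1.74. Gstm1, a glutathione transferase, fell by 1.12. Cyp4f18, which acts on leukotriene B4 in myeloid cells, rose by 1.89 ± 0.19. The club cell list shares Cyp2f2 with the P450 list and Aldh1a1, Cbr2 and Gsta3 with the other list, and the part of club cells in the fall of other enzymes was not tested.

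Of 22 oxidative stress and iron genes 13 rose and 4 fell. Hmox1 (haem oxygenase-1) ranged from 49.5 to 149 CPM (median 82.3) in HDM4wk libraries, against 23.6 to 32.3 CPM (median 25.99) in Saline libraries and rose by 1.74 ± 0.27, Slc7a11, the cystine carrier, rose by 2.71 ± 0.47, and Cat (catalase) fell by 0.96. Among 26 leukotriene and prostaglandin genes 16 rose and 4 fell. Alox12e, an epidermal-type lipoxygenase, had 2.299 to 4.804 CPM after HDM and 0.0869 to 0.3998 CPM in Saline and rose by 3.98 ± 0.40. Ptgs1 (COX-1) rose by 1.27 ± 0.17, and Hpgd, which degrades prostaglandins, fell by 1.62. Of 26 sterol and fatty acid synthesis genes 8 rose and none fell, close to the background share. Dhcr7, the last step of cholesterol synthesis by one route, rose by 1.39 ± 0.20 and the desaturase Scd1 by 1.09 ± 0.19. Of 27 endoplasmic reticulum folding and secretion genes 20 rose and 1 fell, with Sdf2l1 at 1.80 ± 0.21, Xbp1 at 0.95 ± 0.15 and the chaperone Hspa5 at 0.55 ± 0.13. Of 21 glycolysis and hypoxia genes 10 rose and 4 fell, with the myeloid hexokinase Hk3 at 2.56 ± 0.31 and Ldha at 0.94 ± 0.14.

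Cell cycle genes rose in 21 of 23 cases and 1 fell, with a median of 1.65. Tk1, thymidine kinase, ranged from 7.27 to 15.6 CPM (median 12.4) in HDM4wk libraries, against 1.85 to 3.704 CPM (median 3.18) in Saline libraries and rose by 2.01 ± 0.14 (adjusted p = 4.57e-14). Mki67 (Ki-67) rose by 1.71 ± 0.24, and Ccnd1, cyclin D1, fell by 0.33. Complement genes rose in 11 of 20 cases and fell in 2 (C2 and C5ar1), with C3 at 1.83 ± 0.16 and the receptor C3ar1 at 2.18 ± 0.20. Of 18 circadian clock genes 10 fell and 2 rose. Nr1d1 (REV-ERBα) had 28.4 to 63.9 CPM after HDM and 63.8 to 160.1 CPM in Saline and fell by 1.28, and Clock fell by 0.72. The labels do not give the time of day of collection, and its part was not tested. Among 17 glucocorticoid-responsive genes 7 rose and 5 fell, with a median of 0.1, and Zbtb16 fell by 1.52. Interferon genes showed little common movement, with 3 of 19 type I response genes higher and 4 lower, and 6 of 18 interferon-gamma targets higher and 4 lower. Ifit2 fell by 1.51, Oas1a rose by 1.40 ± 0.18 and Gbp2 fell by 0.76. The call for Gbp2 was lost in number range 1 alone (-0.096, adjusted p = 0.784). Of 12 immediate early genes 4 rose and 3 fell, close to the shares of all tested genes (29.3% higher and 27.5% lower), with a median of 0.02. Egr2 was at 2.44 ± 0.25 and Atf3 at 2.23 ± 0.28, while Jun, Ier3 and Dusp1 fell. Fos, Fosb, Egr1, Ier2 and Nr4a1 did not pass the test.

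The changes of smallest p outside the lists included Matk, a kinase of blood cells, at 2.81 ± 0.19 and Cd83, a marker of activated dendritic and B cells, at 1.82 ± 0.13. On the lower side were Rab11fip1, of vesicle recycling, at -1.14 ± 0.10, Lrtm2 at -2.33 ± 0.22 and Esm1, an endothelial proteoglycan, at -2.58 ± 0.24. Of 5 tested genes of a liver list 2 fell and 2 rose, with a median log2 fold change of 0.20, and those that fell were Fabp1 and Asgr1. Fabp1, a fatty acid binding protein (Entrez 14080, chromosome 6, 71199879 to 71205034, GRCm38.p6), fell to at most 0.777 CPM in HDM4wk libraries, against 1.96 to 8.13 CPM (median 5.12) in Saline libraries, a log2 fold change of -4.84 ± 0.45. Asgr1, the hepatocyte lectin, fell by 4.57. The defining liver gene Alb had 15 counts in all HDM4wk and 49 in all Saline libraries. The squamous gene Sprr2a3, of a family of near copies, had 7.097 to 61.03 CPM after HDM and 0 to 1.03 CPM in Saline. Fbp2, a fructose bisphosphatase, fell by 3.28, with 0 to 1.83 CPM after HDM and 0.3998 to 6.14 CPM in Saline, and Vstm2a fell by 2.91, with 0 to 0.8996 CPM after HDM and 0.374 to 3.73 CPM in Saline. Tceal7 had 239 counts over 9 HDM4wk libraries and 0 in Saline, at least 56-fold higher by the floor. Ifi202b, an interferon-inducible gene with near copies, had 297 counts over 6 HDM4wk libraries and 0 in Saline, but HDM4wk replicates 1, 2 and 4 held 10.4, 12.7 and 7.19 CPM and no other HDM4wk library more than 0.341 CPM.

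Markers of other tissues were compared by their summed level. Cardiac muscle genes, which mouse lungs carry in pulmonary veins, had 2 of 10 lower and none higher, with summed levels of 241 to 578 CPM in HDM4wk and 188 to 777 CPM in Saline libraries. Myh6 fell by 0.98 with overlapping groups. Red blood cell genes had 5 of 9 lower and none higher, with summed levels of 1150 to 10200 CPM (median 1360) in HDM4wk libraries, which spanned those of 3400 to 5330 CPM (median 4180) in Saline libraries. Alas2, of haem synthesis in erythroid cells, had 18.3 to 105 CPM after HDM and 98.4 to 146 CPM in Saline, and its highest HDM4wk value was in replicate 3. Skeletal muscle genes had 5 of 8 called higher, but their summed level was 1270 CPM in the highest HDM4wk library, replicate 10, with a group median of 6.51 CPM, against 6.73 to 12.5 CPM in Saline libraries. Without that library none of the 8 was called, which includes any gene left with too few counts to test. Myh1 then had a log2 fold change of -0.64 and Acta1 an adjusted p of 0.919.

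The HDM effect was compared between the ranges of sample numbers. No gene of 14941 tested had an HDM effect that differed between the ranges at an adjusted p under 0.05 in edgeR (0.00%), and 656 (4.39%) did at an unadjusted p under 0.05. DESeq2 called 26 such genes. Within the ranges the log2 fold change of Il13 was 4.80 in range 1 and 5.74 in range 2, that of Arg1 6.19 and 6.75, that of Slc26a4 5.29 and 4.45, and that of Sult1d1 -3.86 and -3.24. Each of these kept its direction in both ranges. Of 182 described genes fitted within the ranges, 49 lost their call in range 1 alone and Cd8a turned direction. In range 2 alone 3 lost it, namely Clca1, Muc5ac and Stat6, and 6 others gained one.

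Between HDM15wk and HDM4wk, 3334 genes (21.4%) passed the test, 1918 higher (12.3%) and 1416 lower (9.08%) at 15 weeks. Scaling by library size only moved the median of all genes by -0.14 on the log2 scale and gave 1036 higher and 2937 lower, or 26.1% of calls higher against 57.5%. Of the 4571 genes higher at 4 weeks, 657 were higher still at 15 weeks and 473 were lower than at 4 weeks. Of the 4293 lower at 4 weeks, 339 were higher and 389 lower still. Both comparisons share the HDM4wk libraries, and HDM15wk had 5 libraries in range 1 and 2 in range 2. HDM15wk replicate 1 stood apart, with a median of -0.87 relative to its group in the bin of genes of lowest GC content, of 4 equal bins, and 0.93 in that of highest. Without that library 3080 genes passed, 1637 higher and 1443 lower. The direction and call of every gene named in this comparison were the same without it. Of 7 tested type 2 cytokine genes 3 were lower and 1 was higher at 15 weeks, with a median of -0.12. Ccl24 ranged from 2.22 to 22.3 CPM (median 4.54) in HDM15wk libraries, against 7.52 to 75.96 CPM (median 47.2) in HDM4wk libraries. The log2 fold change of HDM15wk over HDM4wk was -2.87 ± 0.50 (adjusted p = 0.000131). Chia1 differed by -2.11 ± 0.38, Ccr3 by -1.66 ± 0.38, Il13 by -1.56 ± 0.45 and Mrgprg, an orphan receptor, by -4.01 ± 0.57 on that scale. Class II genes were lower at 15 weeks for 6 of 12 and higher for none, with H2-Aa at -0.52 ± 0.11, and lower for 9 without HDM15wk replicate 1. NK and cytotoxic genes were lower at 15 weeks than at 4 weeks for 11 of 14, with Ncr1 at -1.91 ± 0.33. Acta2, which had risen at 4 weeks, differed by -0.84 ± 0.20.

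In the other direction, Saa3 ranged from 152 to 606 CPM (median 376) in HDM15wk libraries, against 15.1 to 170.5 CPM (median 55.4) in HDM4wk libraries, a log2 fold change of 2.56 ± 0.65. Lcn2 differed by 1.52 ± 0.36, Slpi by 1.96 ± 0.37 and Inhba by 1.98 ± 0.49. S100a8, which had not passed the test at 4 weeks, was higher at 15 weeks by 1.47 ± 0.27. Fga, a fibrinogen chain, differed by 4.98 ± 0.62, Orm2, an acute phase protein, by 4.28 ± 0.83 and Nfasc, a neuronal adhesion molecule, by 4.09 ± 0.53. Arg1, Chil3 and Mmp12 did not pass the test between the times, with adjusted p-values of 0.809, 0.982 and 0.457.

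**Figure D5:**
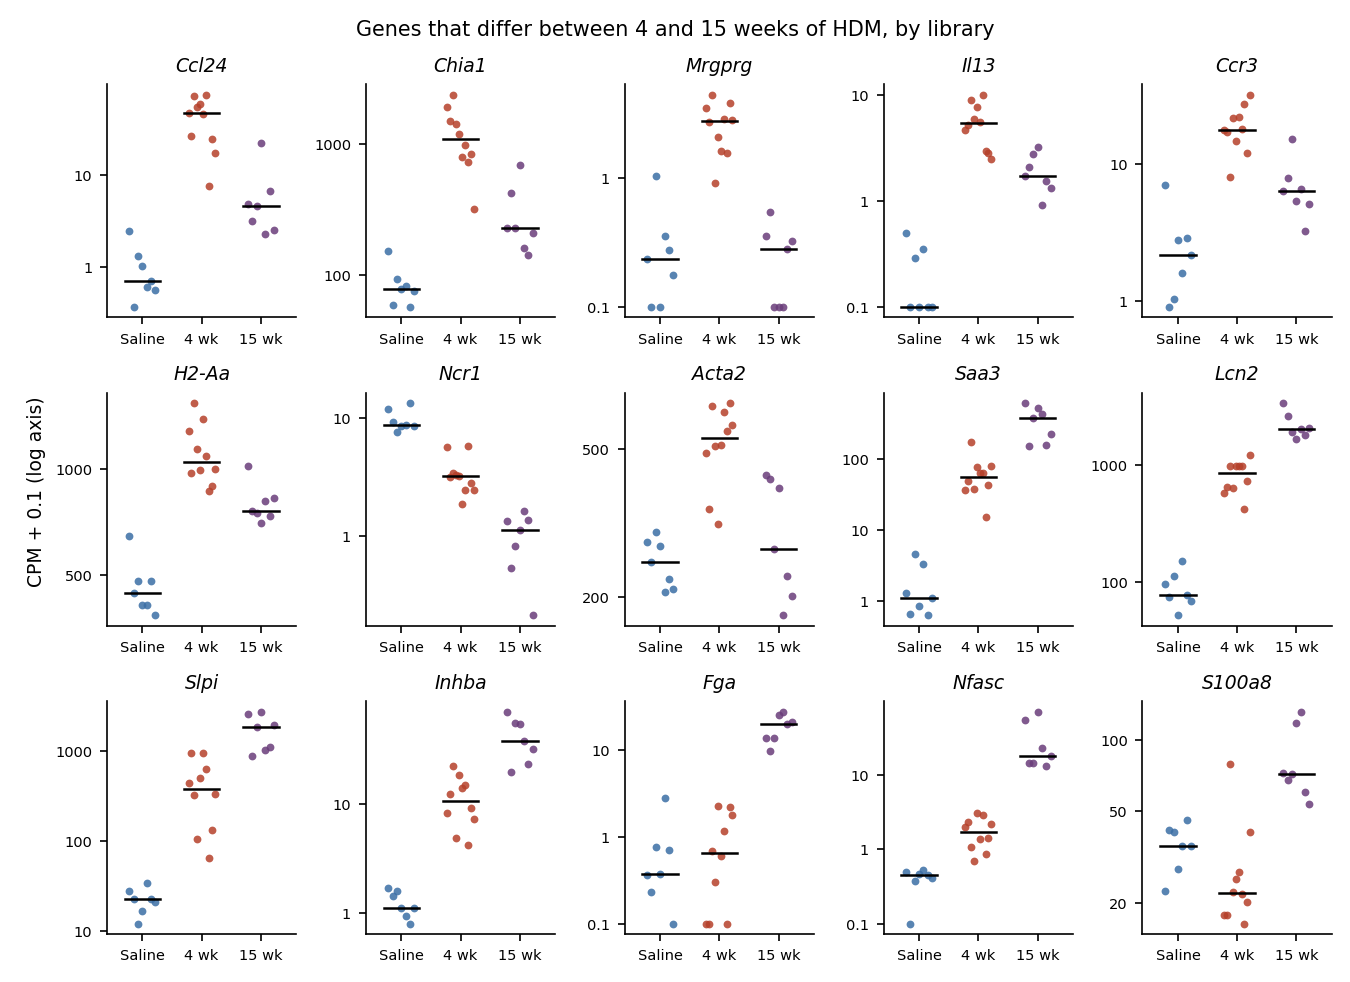
CPM plus an offset of 0.1 on a log axis for 15 genes in Saline, HDM4wk (4 wk) and HDM15wk (15 wk) libraries, with 1 point per library and a line at the group median. From Ccl24 to Acta2 the 15-week median lies below the 4-week median, and from Saa3 to S100a8 it lies above.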

How the data were processed

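Lung RNA was purified with a MagMAX total RNA kit and made into strand-specific libraries with a KAPA stranded mRNA kit, per the labels. The authors deposited 1 table of raw counts per gene for the series, with Entrez gene IDs. The genome build is GRCm38, per the submitters' processing notes, and the aligner, counter and strand setting were not given in the sources used here. Of 24475 IDs, 100 with 2.62% of counts matched no RefSeq gene and are unnamed. Counts were normalised by the trimmed mean of M values and filtered with filterByExpr, leaving 15598 genes. All 43 libraries entered edgeR 4.0.16 (R 4.3.3) with group and number range as terms, and a robust quasi-likelihood fit was tested with Benjamini-Hochberg adjustment. The 17 HDM4wk and Saline libraries entered a further fit of the interaction with number range. limma 3.58.1 and DESeq2 1.42.0 served as alternatives, with other scalings, filters and sample sets. The test was also run on simulated counts in which few genes changed, with no effect of number range and no library apart. That run does not cover data in which 56.8% of genes pass.

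The members and the gene lists were chosen with earlier results of these data known. Genes were named by starred lists, smallest p within each list and direction, and largest changes, and 192 of the 380 genes so named are described, chosen with values known. The correction for GC content and length was added after seeing the data.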

Additional observations from a re-analysis of the deposited data

Results flagged for a closer look

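Some genes had 1 library far from the rest of its group, by Dixon's test of the gap to the nearest library. This applied to 40 of 384 gene and group pairs, where chance gives about 1 in 20. Values are CPM. HDM4wk replicate 3 stood above its group for Fabp1 (0.777, others 0 to 0.257), Sftpd (3340, others 1190 to 2030), Scgb3a2 (304, others 44.9 to 93.5) and Scgb1a1 (15900, others 5190 to 9320). The same held there for Sftpc (28900, others 9680 to 14600), Cd8b1 (13, others 3.15 to 6.56), Ccl21a (173, others 73.3 to 93.5) and Ager (2250, others 900 to 1020). HDM4wk replicate 3 stood below its group for C3ar1 (18.7, others 31.3 to 54.7), Cat (113, others 158 to 222), Ciita (29.7, others 76.9 to 95.2) and Stat6 (89.8, others 131 to 163). HDM4wk replicate 8 stood below its group for C1qb (71.6, others 115 to 172), Ccl2 (3.42, others 6.79 to 14) and Reg3g (13.8, others 42.9 to 110). HDM4wk replicate 10 stood above its group for Trp63 (8.72, others 1.62 to 3.92), Krt5 (85.5, others 0.200 to 2.67), Myh8 (405, others 0 to 0.194) and Acta1 (279, others 0.0855 to 0.799). The same held there for Myh1 (192, others 0 to 0.194). HDM4wk replicate 4 stood below its group for Mmp8 (1.2, others 2.88 to 5.73). Saline replicate 1 stood above its group for H2-Aa (646, others 384 to 480), Il4 (0.666, others 0.0869 to 0.277) and Sftpc (11000, others 7730 to 8960). Saline replicate 1 stood below its group for Lrtm2 (13.9, others 21 to 27.4), Myh6 (52.1, others 188 to 407) and Il1b (8.53, others 14.9 to 22.5). Saline replicate 2 stood below its group for Nfasc (0, others 0.280 to 0.421). Saline replicate 3 stood above its group for Mrgprg (0.935, others 0 to 0.253) and Scgb1a1 (24000, others 13400 to 16500). Saline replicate 3 stood below its group for Ear1 (4.95, others 14.1 to 24.1), Cxcl15 (1040, others 1350 to 1550), Tek (343, others 404 to 455) and Vstm2a (0.374, others 2.31 to 3.73). The same held there for Pecam1 (590, others 754 to 899). Saline replicate 5 stood above its group for Gpnmb (43.9, others 22.4 to 29.9) and Marco (25.4, others 9.29 to 14.4). Saline replicate 5 stood below its group for Asgr1 (2.19, others 3.97 to 6.08) and Inmt (876, others 1080 to 1220). Saline replicate 6 stood above its group for Trp63 (1.39, others 0.673 to 0.933). HDM4wk replicate 3 is the library with high short-transcript and low long-transcript levels, and the part of that profile in its values was not tested.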

How the results depend on the processing

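Between 8277 and 9093 genes changed when any 1 of the 17 libraries was left out, with 4251 to 4700 higher and 4026 to 4393 lower. In number range 1 alone, with 2 Saline libraries, 1405 genes changed, 765 higher and 640 lower, 1101 of them at least 2-fold. Tested against a fold of 1.5, 2029 genes changed, 1232 higher and 797 lower. DESeq2 called 26 genes whose effect differed between number ranges, where edgeR called 0, and leaving out single libraries gave 0 to 3, the 3 without Saline replicate 7. The share of calls that were higher was 51.6% with RLE size factors, 48.4% with library size only and 60.7% with the fold threshold. The correction for GC content and length gave 8653 calls, of which 6825 were also called without it. For HDM15wk against HDM4wk, library size only gave 1036 genes higher and 2937 lower, and calls were between 3020 and 4039 in 8 alternatives, with that scaling and the GC and length correction added after seeing the data. Directions turned for 3 described genes that were called in the main fit or in the alternative. Turns of genes called in neither were not counted. Myh1 was at -0.64 without HDM4wk replicate 10 (adjusted p = 0.882) and ran to 7.73 without other single libraries. Cd8a was at 0.29 in number range 1 alone (adjusted p = 0.547), and Ccl21a was at -0.235 with the GC and length correction (adjusted p = 0.0489). The cause was not tested. No paired analysis was possible because the labels give no shared replicate numbers. Depth limits genes with few counts, such as Epx and Il17a.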
